A study of Homo sapiens with 8 samples.

Results

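The positions described here are the high-scoring ones in a list of YTHDF2 binding positions, taken as those with a score of 100 or more. The list gave 1-nt positions by chromosome and strand. Where a position stood on 2 rows the higher score was kept. Of 37613 distinct positions, 1218 reached 100, or 3.24%, with 637 on the plus and 581 on the minus strand. A threshold of 50 would have taken 9.14% of the positions and a threshold of 200 would have taken 0.734%. The score that chose them is the authors' own and comes with no stated scale. Scores are therefore given as descriptions, and no test was made on them.

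The data are from YTHDF2 iCLIP2 in HEK293T, an established line of human embryonic kidney cells with no engineered change in the genotype label (WT). In iCLIP2, ultraviolet light crosslinks proteins to RNA, an antibody pulls down the protein with its RNA, and the ends of the cDNA mark the crosslinked bases. In all 8 libraries were made, 4 from cells given 20 µM STM2457 for 12 h and 4 from cells given DMSO alone for 12 h, both at 0.2% DMSO. The labels do not say whether the 4 of a group came from separate cultures. STM2457 inhibits METTL3, the catalytic subunit of the enzyme that writes N6-methyladenosine (m6A) in mRNA. The study set out to learn which YTHDF2 contacts depend on m6A. The list holds no column for a library or a treatment, so no comparison of STM2457 with DMSO was made, the spread between replicates is unknown, and the depth behind a position is unknown.

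YTHDF2 is a cytoplasmic protein whose YTH domain holds the methylated adenosine in an aromatic pocket. It brings the CCR4-NOT deadenylase to the bound mRNA, which is then shortened and degraded. The methyltransferase acts on adenosines that are followed by a cytosine and preceded by a purine, a sequence context known as DRACH.

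Sequence was read where a listed position lay inside a RefSeq promoter window (GRCh38.p14, 250 bases before to 50 after a gene's start), since these windows were the sequence at hand. The following sequences are shown because they let the listed base be seen in its context. The first 3 are the high-scoring positions that lay in a window, and the next 5 are the highest-scoring ones under 100 with at least 12 bases of window on each side, chosen after the scores were seen. That condition left out 1 position of higher score than the lowest shown, in FOXRED2 at 80.8, which is among those followed by G that are counted below. Each is written 5′ to 3′ on the strand of the position with 25 bases. The capitals mark the 5 bases around the listed one, which is the third of them.
ENO1, chr1:8878676-8878700, minus strand: cgggcggcgcGGACAgtatctgtgg
UQCC3, chr11:62672270-62672294, plus strand: cccaaaccctGGACTgactgcttta
DIAPH1, chr5:141516796-141516820, minus strand: gcggagccgcAGACTgtcctgccct
BRD2, chr6:32972845-32972869, plus strand: gaggccacccGGACTttccgcggct
ZNF146, chr19:36235893-36235917, plus strand: aatcatcaagGGACTtagttgggag
ZNF146 (nearer its start), chr19:36235849-36235873, plus strand: aacacaacctGGACTgaaatcatga
PCBP1, chr2:70088409-70088433, plus strand: ctcgattcaaGGACAacacaccatt
CEBPB, chr20:50192157-50192181, plus strand: ggcgccggcaAAACTttggcactgg

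The listed base was an adenosine followed by a cytosine in each of these. The same held more widely. Of 282 listed positions inside a window, 282 were an A, and all 278 whose surrounding bases could be read stood at the A before the C of a 4-letter word. The words searched were AAAC and AGAC, then GAAC and GGAC, then TAAC and TGAC, on both strands. By comparison, 1.82% of the bases of all windows, both strands counted, are that A in such a word, although 99.96% of the 35116 windows hold at least 1 somewhere. A match describes the letters and shows no methylation. The next base was A, C or T at 237 of the 278 positions (85.3%), which completes DRACH, and G at 41. No source used here says whether the authors moved or filtered positions to such bases.

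Among the readable positions the most frequent of these words was GGAC, at 105 of 278 (37.8%), followed by GAAC at 60 and AGAC at 36. How often each word, or each following base, occurs in the windows is not given, so no preference can be read from these counts. Positions followed by G had a median score of 3.24 with 0 of 41 at 100 or more. Those completing DRACH had a median of 6.505 with 3 of 237 at 100 or more. The counts at 100 or more are too small to compare. These scores describe windows at annotated gene starts, some of them starts of another gene on the other strand, and cannot stand for the whole list. High-scoring positions were scarce there, with 3 in a window (0.246% of the 1218) against 279 of those under 100 (0.767%).

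The position at ENO1, the glycolytic enolase, had a score of 187 and lay just before the annotated gene start, outside the gene. That at UQCC3, an assembly factor of respiratory complex III, scored 171 and was read from the window of the neighbouring gene LBHD1 on the other strand. The position in DIAPH1, an actin-nucleating formin, scored 107 and was likewise read from a window of the other strand. The BRD2 position scored 86.7, the ZNF146 positions, which lie well inside that gene, 74.8 and 73.9, the PCBP1 position 71.7 and the CEBPB position 68.0. Those in ZNF146, PCBP1 and CEBPB were also read from windows of the other strand. The BRD2 position lay 4263 nt from the 5′ end of that gene's annotated span.

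The spacing of listed positions can be set beside that of the words. None of these words has a C before its last letter, so the A of neighbouring words on a strand cannot be closer than 4 nt. That was also the smallest distance in the windows. Across the whole list the smallest distance between neighbouring positions on a strand was likewise 4 nt, with 310 positions at that distance. It was 4 nt among the high-scoring positions too.

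Scores of the selected positions ran from 100 to 708 with a median of 143 and quartiles of 117 and 191. Those under 100 had a median of 8.22. Most of the selected positions lay close to the threshold, 942 of them (77.3%) under 200. Scores of 200 to 300 were given to 176 positions and scores of 500 or more to 27. Just inside the threshold lay positions in MGME1, HNRNPM, KAT6A, FAM120A and CD320, at 100.05 to 100.13. Just outside it lay positions in SARS1, ZNF768, EP300, ASXL1 and ZNF791, at 99.80 to 99.95. The threshold thus cuts through a continuous range.

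**Figure D1:**
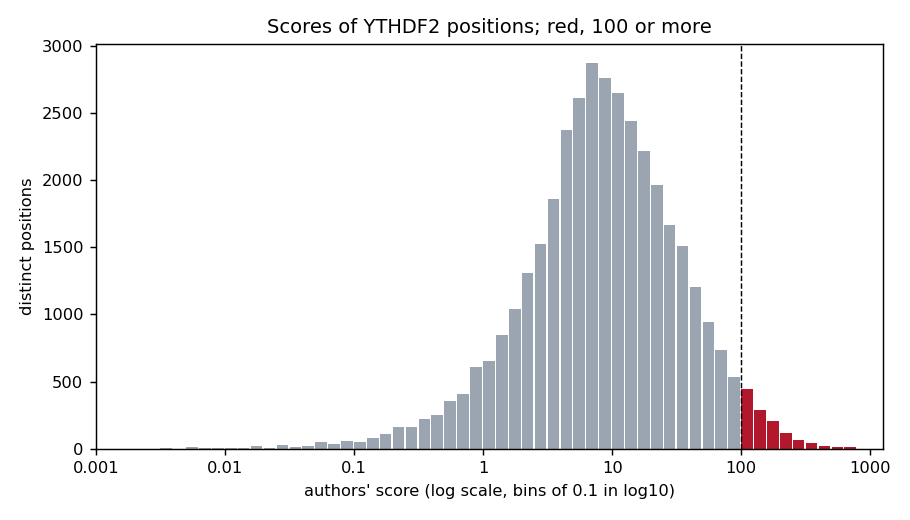
Distinct positions (y axis) by the authors' score (x axis, log scale), with positions of 100 or more in red right of the dashed line. The 1218 red positions are the upper tail of a single hump whose median is 8.67.

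The top of the range was a shared value. At the maximum of 708 stood 12 positions, and the next score was 680. The maximum equals, to the 6 digits in the list, the negative natural logarithm of the smallest normal double-precision number a computer can hold. No order exists among these 12 positions.

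They lay in 7 genes, which encode cytoskeletal proteins, chaperones, a lipid enzyme, a mitochondrial carrier and a splicing scaffold. ACTB, the cytoplasmic beta-actin, had 2 listed positions and both were at the maximum, at 5527533 and 5527743 on chromosome 7 (minus strand), 385 and 595 nt from the gene's 3′ end. ACTG1, the gamma-actin, had 3 of 5 positions at 100 or more, at 708, 708 and 152, while the other two scored 31.8 and 6.91. HSPA1B, a heat-inducible HSP70, had 3 of 4, at 708, 708 and 169, and the remaining position scored 53.2. HSPA8, the constitutive HSP70, had 3 of 6, at 708, 708 and 471, and its others scored 23.5, 4.88 and 2.71. High and low scores therefore stood side by side in the same gene, 32 nt apart in HSPA8 between 123059649 (2.71) and 123059681 (708) on chromosome 11.

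DEGS1, the dihydroceramide desaturase of sphingolipid synthesis, had 6 of 7 positions at 100 or more, in 2 groups. At its upstream group, from 224189682 to 224189747 on chromosome 1 (plus strand), the scores were 333, 305 and 708. At the downstream group, from 224192512 to 224192647, they were 708, 231 and 157. A single position between them scored 28.1. SLC25A3, the mitochondrial phosphate carrier, had 2 positions, 1 at the maximum and the other at 1.22. The position at the maximum was on 2 rows and its other score was 6.49. SRRM2, a scaffold of nuclear speckles, is described below with the genes that had the most. Several of these genes (actins, tubulins, HSP70) belong to families of near-identical copies and pseudogenes. No source used here says how reads matching more than 1 copy were handled, so their scores are uncertain in that respect.

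Below the maximum, the highest positions were in SERBP1, an mRNA-binding protein of the ribosome, at 680, and in DYNLL1, a dynein light chain, at 665. SERBP1 had 2 of 10 positions at 100 or more, the other at 341, and its remaining positions scored from 0.735 to 38.4. Both listed positions of DYNLL1 reached 100, at 665 and 120, and lay 28 nt apart. TUBB4B, a beta-tubulin, had 4 of 8 at 650, 628, 352 and 253. TUBB, another beta-tubulin, had 5 of 9 within 829 nt, at 520, 389, 332, 185 and 125. MARCKSL1, an actin-binding substrate of protein kinase C, had 2 of 4, at 647 and 179. The position at 647 was on 2 rows, with 39.5 as its other score.

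RABEP1, an effector of the endosomal GTPase RAB5, had 2 of 8, at 615 and 105, and the position 64 nt from the higher scored 1.96. HOXB9, a posterior homeobox gene, had 546 and 103, and EEF2, the translocation factor of translation elongation, had 538 and 229. TPT1, the translationally controlled tumour protein, had 522, 217 and 181 at 3 positions within 113 nt. A further position, 16 nt from the highest, fell just short at 99.1. ZNF503, a zinc finger repressor, had 6 of 14 at 578, 283, 267, 242, 165 and 106, of which 3 lay within 29 nt. The position at 578, among those 3, was on 2 rows and its other score was 11.2. RefSeq gives ZNF503 a span of 122192 nt although its listed positions extend over 2.54 kb, so distances to gene ends in such genes reflect the longest annotated extent.

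Assignment to genes used RefSeq spans of protein-coding genes on the strand of the position. Of the 1218 positions, 1181 were placed in 1 gene, 33 lay in several genes of that strand or in a gene of unknown strand, and 4 lay outside protein-coding genes. The 1181 positions lay in 783 genes, 10.3% of the 7628 genes with a listed position. Genes with 1 such position numbered 562, and 221 genes had 2 or more and held 619 of the positions (52.4%). Genes with 5 or more numbered 21 and held 136.

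The genes with a high-scoring position also had more positions in all. Their median was 7 (quartiles 4 and 11), against 3 in genes with none. They spanned a median of 24.0 kb, against 33.2 kb. A gene with more positions has more chances to hold a high score, and the expression of the genes was not analysed here.

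The genes with the most high-scoring positions were of varied function. SPEN, a large repressor with RNA recognition motifs, had 13 of 44 positions at 100 or more, the most of any gene. They fell into 3 stretches of chromosome 1 (plus strand). The first, from 15873947 to 15876403, held 3, at 129, 141 and 451. The second, from 15928568 to 15935274, held 8, at 141 to 332. The last, at 15939663 and 15939801, held scores of 124 and 144 within the final 1 kb of the gene. The other positions of SPEN had a median of 24.2 and reached 92.3.

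SON, which organises nuclear speckles and aids splicing of weak introns, had 11 of 41, within 7.93 kb of chromosome 21 from 33549841 to 33557774. Its outermost positions lay 26.9 kb apart, but all except those at 33575638 and 33576530 lay from 33549624 to 33559632. Of the 11, 3 lay within 29 nt at 252, 216 and 461. SRRM2, the other speckle scaffold, had 7 of 29, at 167, 118, 708, 482, 380, 328 and 140 in 5′ to 3′ order, within 3.60 kb. Its remaining positions had a median of 10.6.

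TASOR2, a paralog of the HUSH silencing subunit TASOR, had 7 of 45, with none above 192. IRS4, an insulin receptor substrate adaptor, had 7 of 20, at 112 to 309. FEM1B, a substrate receptor of a CUL2 ubiquitin ligase, had 7 of 19, all within 1.36 kb. Its positions extend over 12.7 kb only because of those at 68278588 and 68278618. All its other positions, whatever their score, lay from 68289762 to 68291290 on chromosome 15. NSD1, a histone H3K36 methyltransferase, had 6 of 39 in 2 distant stretches, 3 from 177209851 to 177211840 and 3 from 177294224 to 177295337 on chromosome 5. HCFC1, the host cell factor that bridges transcription factors and chromatin enzymes, had 6 of 21, again in groups of 3, at 166, 119 and 133 near its 5′ end and 119, 138 and 117 farther on. EIF4G1, the scaffold of the eIF4F cap-binding complex, had 6 of 18, likewise 3 and 3. At the upstream group its scores were 103, 391 and 357, and in the last 1 kb of the gene they were 118, 361 and 113. No other position of EIF4G1 exceeded 21.0. By the lower score of positions on 2 rows, the groups of HCFC1 and NSD1 thinned out. In HCFC1 the 119 near the 5′ end fell to 18.6, and farther on 138 and 117 fell to 0.0241 and 1.36. In the first stretch of NSD1, 191 and 326 fell to 2.79 and 53.1. In EIF4G1 only the 391 changed, to 228. Other genes above also had falls, although most high-scoring positions in each stood on 1 row. In the second stretch of SPEN, 332, 288 and 141 fell to 19.0, 35.0 and 14.1. Elsewhere 410 fell to 7.71 in SON, 380 to 77.9 in SRRM2 and 261 to 10.7 in IRS4. In TASOR2 175 fell to 13.6, and in FEM1B 149 fell to 35.9.

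YTHDF2's own mRNA was among these genes. It had 7 of 13 positions at 100 or more, at 133, 153, 174, 103, 140, 159 and 196 in 5′ to 3′ order, all within 1.13 kb of chromosome 1 from 28742540 to 28743665. The other 6 had a median of 54.5 and reached 80.2. Taking the lower score where a position was on 2 rows, 2 of the 7 fell to 25.5 and 40.6.

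**Figure D2:**
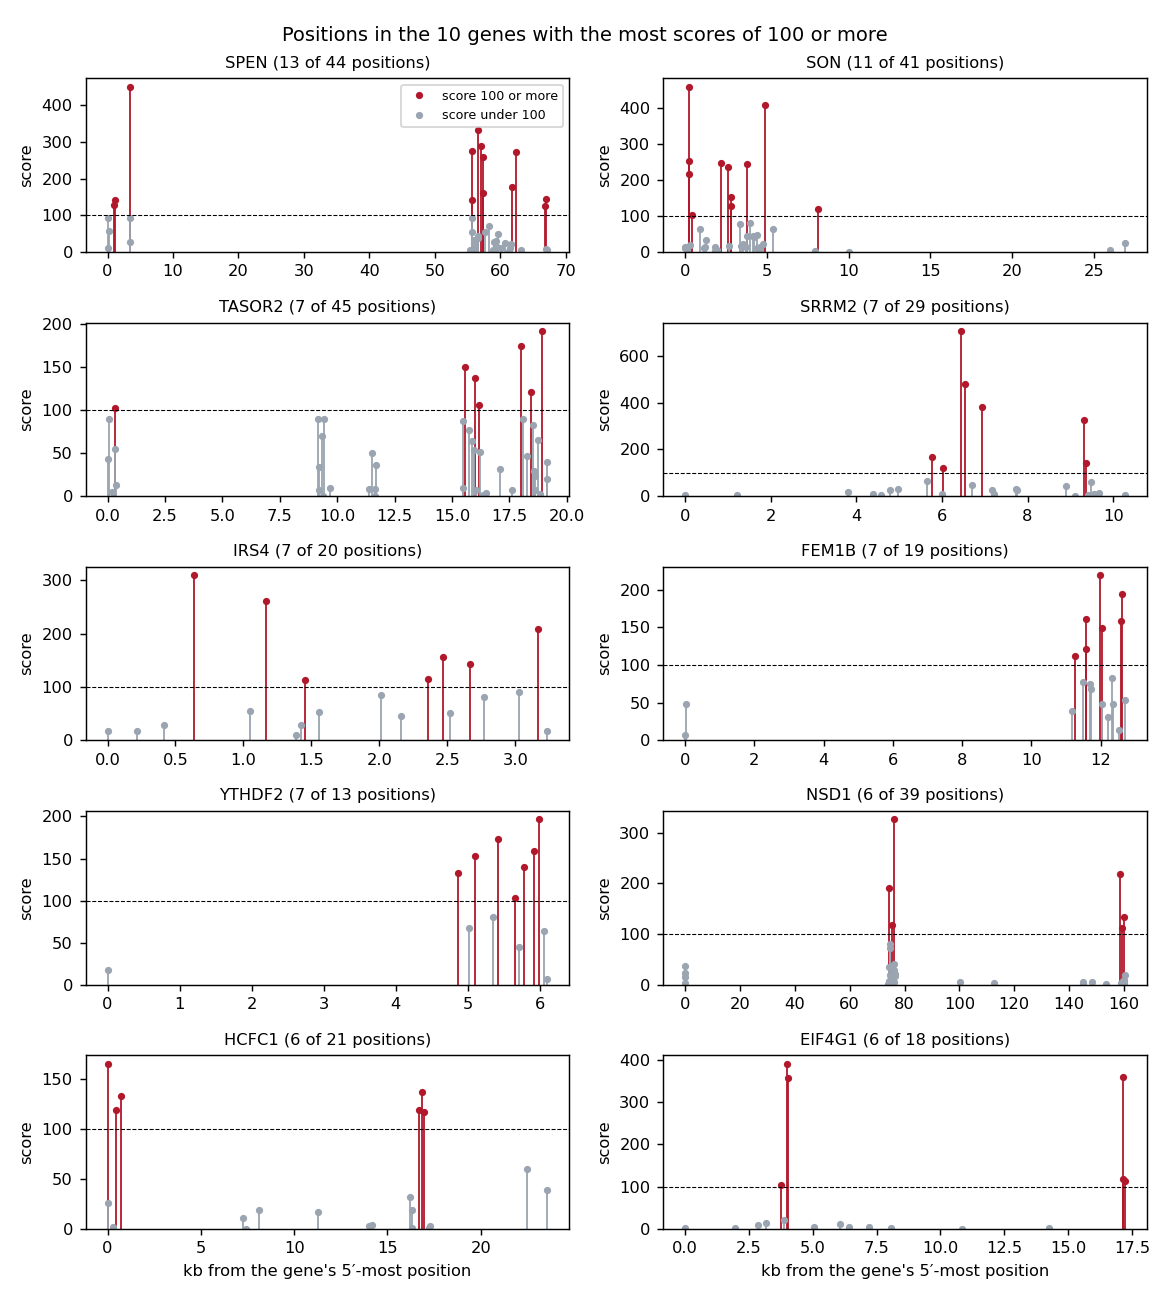
Authors' score (y axis) of every listed position in the 10 genes with the most positions of 100 or more (among 7 genes with 6, the 3 shown are those with the most positions in all, then by name), by distance in kb from the gene's 5′-most listed position (x axis). Red points are 100 or more and grey ones are lower, and NSD1, HCFC1 and EIF4G1 each show 2 groups of 3 red points. Positions on 2 rows are drawn at the higher score, on which the groups in NSD1 and HCFC1 depend. So do some red points in every other gene shown except EIF4G1.

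Genes whose listed positions all reached 100 were few and had few positions. Of the 783 genes, 25 had a single listed position, and among the 758 with 2 or more, 11 had all at 100 or more. Beside ACTB and DYNLL1, these included the mitochondrial ribosomal protein genes MRPL57, at 320 and 314 only 8 nt apart, and MRPL12, at 188 and 118. HSPD1, the mitochondrial chaperonin HSP60, had 263 and 121. SLC25A5, an ADP/ATP carrier, had 248 and 146. AIMP2, a scaffold of the multisynthetase complex, had 216 and 177. CHCHD1, a protein of the small mitochondrial ribosomal subunit, had 176 and 131.

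At the other end, many positions did not bring a high score. KMT2D, a histone H3K4 methyltransferase, had 46 positions with none above 49.7. Its paralog KMT2C had 41 with none above 72.1, the homeobox gene ZFHX4 42 with none above 76.0, PRR14L 41 with none above 54.2, and MACF1, a linker of microtubules and actin, 40 with none above 69.5.

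Within a gene the highest score stood above the next by widely differing amounts. Over the 758 genes with a high-scoring position and at least 2 positions, the highest was a median of 2.33 times the second (quartiles 1.44 and 4.38). It was over 5 times the second in 165 genes and under 1.5 times in 207. In the 5185 genes with no high-scoring position and at least 2 positions the median was 1.75 (quartiles 1.28 and 2.97). These ratios rest on the score that chose the genes and are a description. The widest gap was in TOP1, DNA topoisomerase I, with 166 and 0.0301. EEF1A1, the elongation factor that delivers aminoacyl-tRNA, had 442 and 0.214, and CFL1, the actin-severing cofilin, 299 and 0.721. Positions under 100 in genes with a high-scoring one had a median of 11.96, against 7.76 in genes with none.

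Gene groups differed widely in the share of their positions at 100 or more, which was 3.21% over all 36808 assigned positions. The lists were chosen with earlier results of these data known and no set test was made, so the shares are descriptions. Of 27 lists with any position, 21 lay above that share and 6 below. With the lower score of positions on 2 rows, all but 2 of the 21 exceeded the corresponding share of 2.22% at the digits given. Inner mitochondrial carriers equalled it, with 1 of 45, and the proteasome list had 0 of 65.

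Readers of m6A had 13 of 56 positions at 100 or more (23.2%). All 13 were in the YTHDF family, with 7 in YTHDF2, 3 of 11 in YTHDF1 (129, 157 and 167) and 3 of 12 in YTHDF3 (136, 153 and 130). Among m6A writers and erasers the share was 5.22%, with 6 of 115 positions. RBM15B, an adaptor of the methyltransferase, had 2, the highest at 215. WTAP, which anchors the methyltransferase, had 1 at 180, ZC3H13 1 at 135 and the demethylase ALKBH5 1 at 123. In the deadenylation and decapping list 7 of 165 were that high (4.24%). They included BTG1, an adaptor of CCR4-NOT, with 2 and a highest score of 218, and DDX6, the P-body helicase, at 242. The deadenylase adaptors TOB1 and TOB2 stood at 164 and 163. By the lower score of positions on 2 rows this list had 4 of 165 (2.42%), against 2.22% of all assigned positions. BTG1's 218 fell to 34.7, TOB1 to 40.4 and TOB2 to 11.1, while DDX6 was unchanged. Readers then had 10 of 56 (17.9%), with YTHDF1's 167 at 3.44. Writers and erasers had 5 of 115 (4.35%), with ALKBH5 at 23.9.

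Chaperones had 21 of 132 (15.9%), in 12 of their 24 genes with a position. DNAJB1, an HSP40 co-chaperone, had 4 of 9, the highest at 268, and joined HSPA1B, HSPA8 and HSPD1. SR and spliceosome genes had 21 of 133 (15.8%), but 18 of the 21 were in SON and SRRM2. SRSF9 and SRSF3 had 1 each, at 166 and 164. The hnRNP list had 14 of 87 (16.1%). PCBP1, a poly(C)-binding protein, had 4 of 8 in 2 pairs, at 350 and 120 lying 10 nt apart and at 289 and 349 lying 17 nt apart. HNRNPA0 had 2 with 484 as its highest, and HNRNPF 2 with 255. By the lower score of positions on 2 rows the hnRNP list had 8 of 87 (9.20%). Both positions of HNRNPA0 then fell under 100, to 75.6 and 70.7. Chaperones had 16 (12.1%) by that score, and SR and spliceosome genes 17 (12.8%).

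The list of 14-3-3 proteins and phosphatase subunits had 13 of 71 (18.3%), and 7 (9.86%) by the lower score. YWHAH, 14-3-3 eta, had 5 of 8, within 0.914 kb and up to 391, and PPP1R15B, which recruits a phosphatase to eIF2 alpha, had 4 of 13 with a highest score of 335. Lipid synthesis genes had 16 of 104 (15.4%), of which 6 were in DEGS1. The desaturase SCD had 2 with 244 as the highest, and MSMO1 had 2 of 3 with 128. Tubulins and microtubule motors had 16 of 127 (12.6%), with 9 in TUBB and TUBB4B, and 11 (8.66%) by the lower score. Carriers of amino acids, sugars and lactate had 11 of 88 (12.5%), among them the lactate carrier SLC16A1 with 4 of 9 and a highest score of 465, SLC7A5 with 3 and SLC1A5 with 2. By the lower score this list had 9 (10.2%), with the 465 of SLC16A1 at 42.3 and the 229 of SLC1A5 at 13.8. Translation factors had 12 of 110 (10.9%), 6 of them in EIF4G1. Nuclear transport genes had 10 of 94 (10.6%), with RAN, the small GTPase that drives transport, at 371.

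Ubiquitin and E2 genes had 5 of 33 (15.2%), with UBE2R2 at 292, UBE2N at 183 and UBE2D3 at 163 as the highest score of each. Cell cycle genes had 18 of 191 (9.42%), and 10 (5.24%) by the lower score. MKI67, the proliferation marker, had 5 of 54 and CENPF, a kinetochore protein, 5 of 36. By the lower score 3 of the 5 in MKI67 fell to 38.6, 14.2 and 7.79, and 2 of the 5 in CENPF to 5.10 and 2.05. MDM2, the ubiquitin ligase of p53, had 3 of 15 with a highest score of 412, and the mitotic kinase AURKA had 1 of 3 at 270. Immediate early genes had 7 of 84 (8.33%), and 4 (4.76%) by the lower score. MYC had 388 and 110, the latter at 3.31 by the lower score, and JUN had 2 up to 163. Cytosolic ribosomal protein genes had 11 of 129 (8.53%), in 8 of 65 genes with a position. RPSA was highest at 408, followed by RPS24 at 295, and both positions were on 2 rows with other scores of 60.9 and 19.6. Replication-dependent histone genes had 5 of 30 (16.7%), and 2 (6.67%) by the lower score, at 1 position per gene, with H2AC11 at 362.

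Lists nearer the overall share included the m6A writers and erasers (5.22%) and deadenylation and decapping (4.24%) given above. Others were actins and their regulators with 6 of 87 (6.90%), 5 of them in ACTG1 and ACTB, and inner mitochondrial carriers with 3 of 45 (6.67%). Proteasome genes had 3 of 65 (4.62%) and coactivators 7 of 175 (4.00%). Glycolysis had 1 of 33, TPI1 at 267, and chromatin remodellers had 8 of 267, led by BPTF with 3. Lists below the overall share also included the one with the most positions. ZNF genes had 24 of 2062 (1.16%), with 6 of the 24 in ZNF503 and 2 in ZNF768, whose highest was 397. Histone lysine methyltransferases and demethylases had 9 of 432 (2.08%), 6 of them in NSD1. Oxidative phosphorylation genes had 2 of 127 (1.57%), UQCR10 at 360 and UQCC3 at 171. Neuronal marker genes had 0 of 13, and no haematopoietic marker had a listed position.

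**Figure D3:**
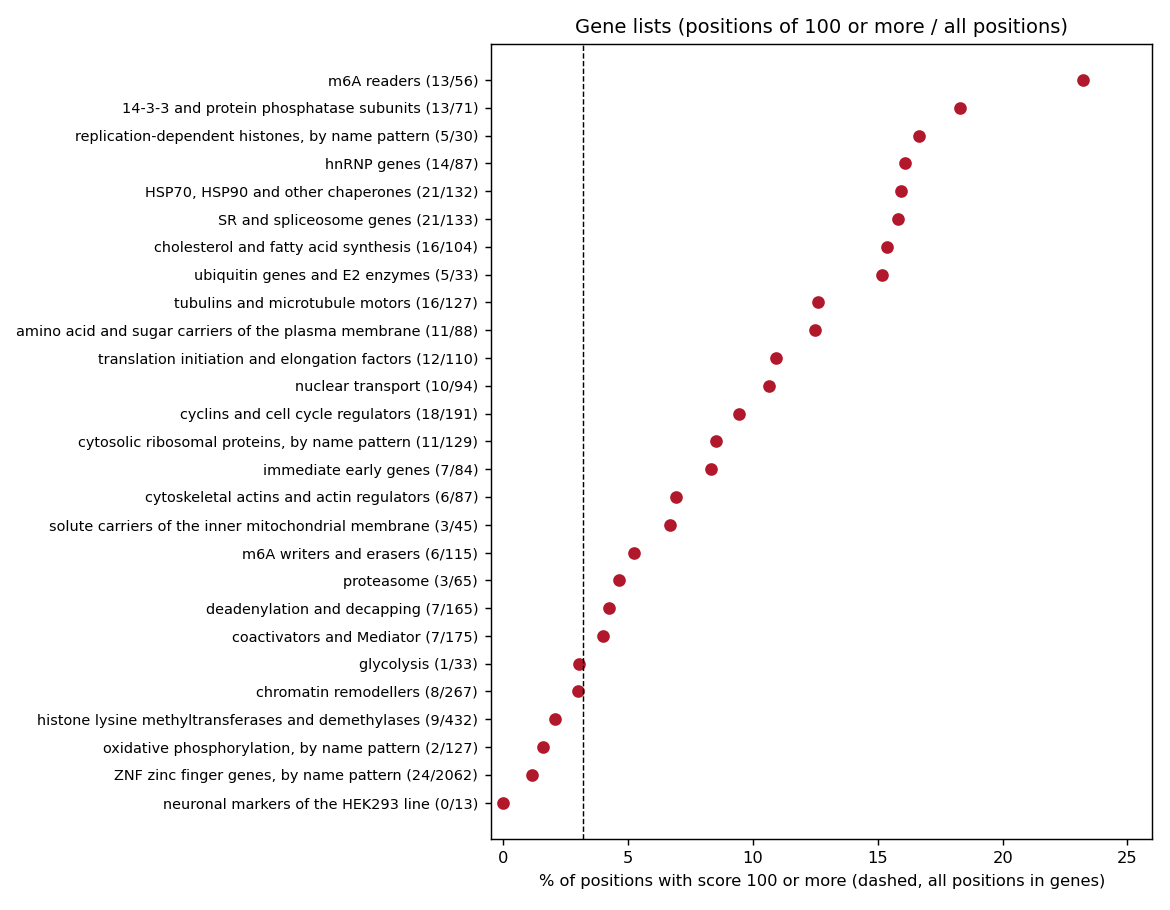
Percent of listed positions with a score of 100 or more (x axis) in each gene list (y axis, with the positions of 100 or more over all positions), against the dashed line at 3.21% for all assigned positions. The lists run from 23.2% in m6A readers down to 0 in neuronal markers, with ZNF genes at 1.16%.

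The share of high-scoring positions fell with the genomic span of the gene. It was 7.03% in genes under 5 kb (182 of 2590, exact binomial 95% interval 6.07 to 8.08), 4.27% from 5 to 10 kb, 3.45% from 10 to 30 kb, 2.97% from 30 to 100 kb, 1.74% from 100 to 300 kb and 1.36% above (17 of 1249, interval 0.795 to 2.17). These intervals cover counting error only and treat positions as independent, although positions of a gene share its expression. The share was 1.48% in genes with a single listed position and 4.75% in genes with 20 or more.

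Along genes of 10 kb or more, high-scoring positions lay somewhat more often at the 3′ end. In the last 1 kb stood 139 of 852 (16.3%, interval 13.9 to 19.0), against 3867 of 29925 positions under 100 (12.9%). In the first 1 kb stood 18 of 852 (2.11%, interval 1.26 to 3.32), against 986 of 29925 (3.29%). Restricted to the 552 such genes with both kinds, the last 1 kb held 15.8% and 12.1% and the first 1 kb 2.15% and 3.29%, the high-scoring positions given first each time. The typical distance differed little, with a median of 5214 nt from the 3′ end for high-scoring positions and 5344 nt for the others. By gene, the median high-scoring position was nearer the 3′ end than the median of the others in 294 of the 552 and farther in 258. Among all positions in genes of 10 kb or more, the share at 100 or more was highest 250 to 500 nt from the 3′ end, at 4.34% (interval 3.26 to 5.65), among the bins counted from that end. Among those counted from the 5′ end it was highest at 2000 to 3000 nt, at 5.05% (21 of 416, interval 3.15 to 7.61). It was lowest in the first 250 nt, at 0.997%. Exon boundaries were not used, so introns are included in these distances.

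High-scoring positions were also less often isolated. A neighbour within 50 nt on the same strand, whatever its score, was present for 445 of the 1218 (36.5%, interval 33.8 to 39.3), against 10715 of 36395 (29.4%) of the others. Inside the 783 genes that hold a high-scoring position the values were closer, 36.4% and 33.6%. No neighbour within 1000 nt was found for 7.31% of the high-scoring positions and 16.6% of the others. The median distance to the nearest position was 71 nt for high-scoring positions and 104 nt for the others. In 406 of 747 genes with both kinds the median distance was shorter for the high-scoring ones, and in 258 it was longer.

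Most neighbours were under 100, as most listed positions are. Another high-scoring position lay within 50 nt of 106 of the 1218 (8.70%) and within 200 nt of 311 (25.5%). Of positions under 100, 402 (1.10%) had a high-scoring one within 50 nt. Among positions with any neighbour that close, a high-scoring one was present for 23.8% of the high-scoring positions and 3.75% of the others. Positions of a gene share its expression, whose part in this was not tested. Sets of 3 consecutive high-scoring positions within 200 nt numbered 14, some of them sharing positions, and 2 of them were within 50 nt, in SON and ZNF503. After those, the closest were at DEGS1 within 65 nt and, within 69 nt, in a region of chromosome 11 shared by H2AX and DPAGT1. EIF4G1 followed within 89 nt. The set in ZNF503 and that within 65 nt at DEGS1 each include 1 position on 2 rows, with lower scores of 11.2 and 28.5. Those in SON within 29 nt and in EIF4G1 hold only positions on 1 row.

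**Figure D4:**
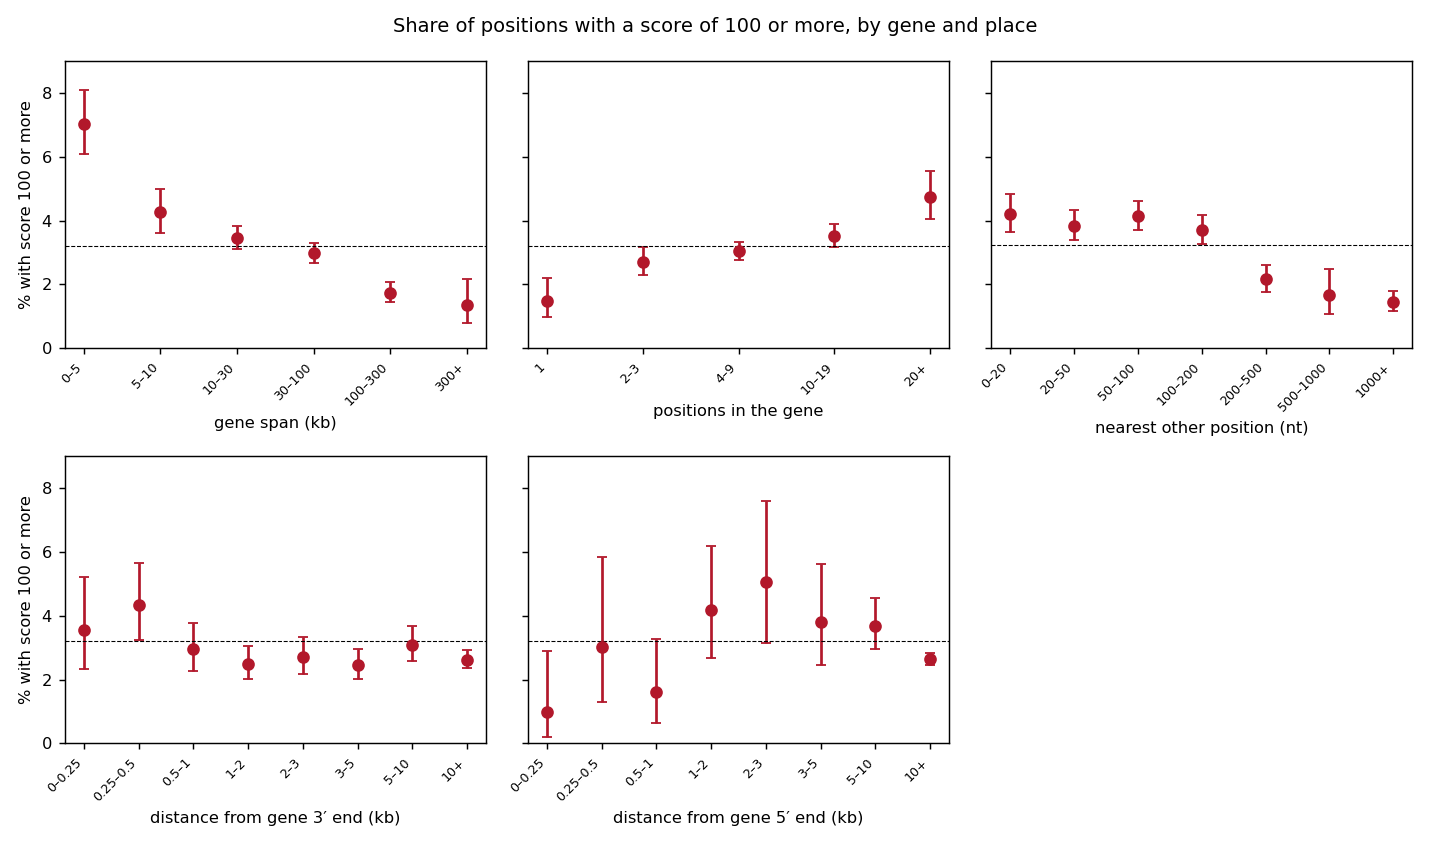
Percent of listed positions with a score of 100 or more (y axis) by gene span, by positions in the gene, by distance to the nearest other position and by distance from the gene's 3′ and 5′ ends in genes of 10 kb or more, with exact binomial 95% intervals. Dashed lines mark the share over all positions (3.24% for the nearest position, 3.21% of assigned ones elsewhere), and the span panel falls from 7.03% to 1.36%.

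The list runs through the chromosomes several times on each strand, and by the order of rows it has a shorter part of 8935 rows and a longer part of 34243. Nothing in the file or the labels says what these parts are, so neither is tied to a treatment. High scores were mostly in the longer part, with 1184 of its rows at 100 or more (3.46%), against 66 rows (0.739%) of the shorter. Each part holds a large run and a small run per strand. The 4 small runs together had 2 rows at 100 or more, at 127 and 218.

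Of the 1218 positions, 405 (33.3%) stood in both parts, against 14.2% of those under 100. Since the higher of 2 scores was kept, being on 2 rows itself raises the chance of reaching 100. By gene, the share on 2 rows was higher for the high-scoring positions in 302 of 747 genes, lower in 273 and equal in 172. The score in the longer part alone avoids this. Of 1184 positions at 100 or more there, 376 (31.8%, interval 29.1 to 34.5) were also in the shorter part, against 5189 of 33059 under 100 (15.7%). Among positions of the same genes the values were 31.2% and 17.7%. The share rose step by step with the score in the longer part, from 9.79% under 5 through 29.0% at 50 to 100 and 30.3% at 100 to 200 to 36.5% at 200 or more.

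The score in the shorter part was also higher where the longer part's score was high. Its median was 21.1 over the 376 positions at 100 or more in the longer part and 6.64 over the 5189 under 100. The higher of the 2 scores was a median of 7.59 times the lower at the 405 high-scoring positions and 3.05 times at positions under 100 on 2 rows. The rule, which took positions by the higher score, favours such a gap. The lower score of the 405 had a median of 22.8 and quartiles of 7.94 and 55.1. The lower score was under 10 at 127 of the 405 and at 100 or more at 32. The longer part gave the higher score at 370 and the shorter at 33, with equal scores at 2, in ACTB and ACTG1.

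**Figure D5:**
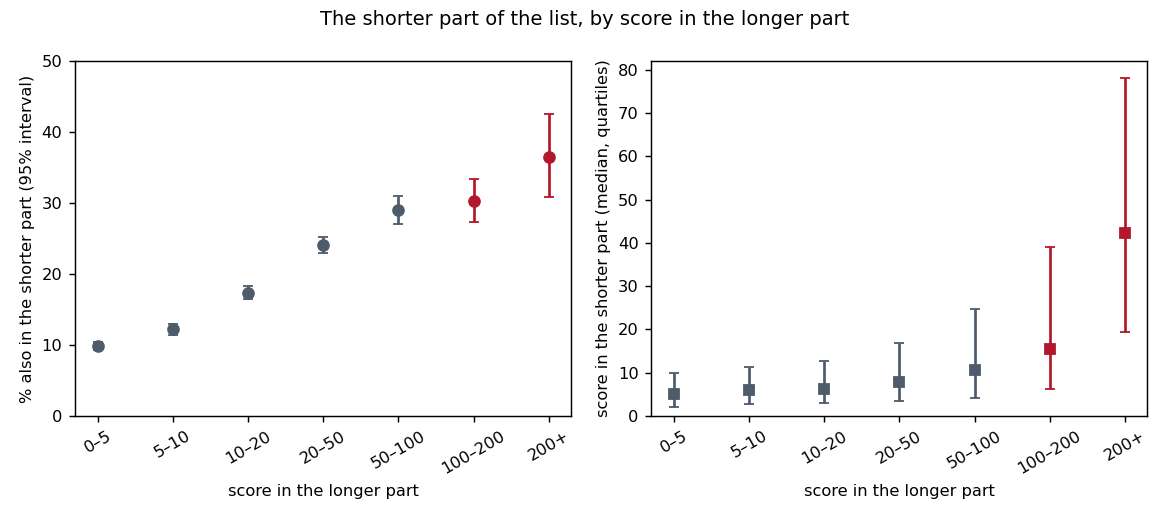
Left, percent of positions of the longer part also found in the shorter part (y axis, exact binomial 95% intervals) by score in the longer part (x axis). Right, their score in the shorter part (median and quartiles); red marks 100 or more, where the share is 30.3% and 36.5% and the median 15.4 and 42.3.

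Positions high in both parts lay in many of the genes named above. TUBB4B had 650 in the longer and 535 in the shorter part at 137242712 on chromosome 9, and 253 and 186 at 137243111. HSPA8 had 247 and 471 at 123059838, SERBP1 680 and 211, EIF4G1 391 and 228, ZNF768 397 and 271, and TUBB 332 and 295, each with the longer part first. Other positions of the same genes had unlike scores, with 628 and 4.37 in TUBB4B at 137242601, 520 and 7.21 in TUBB at 30723445 on chromosome 6, and 341 and 25.5 in SERBP1, the higher score first. IRS4 had 2 such positions, at 208 and 179 and at 107 and 156. Others were in the mitotic kinase AURKA (270 and 155), the ubiquitin ligase HUWE1 (342 and 229), RPS24 (149 and 248), SCD (244 and 139) and the stress-induced mTOR inhibitor DDIT4 (178 and 130). The widest disagreement was in HCFC1, where a position at 153954719 on chromosome X had 138 in the longer and 0.0241 in the shorter part. RIF1, a DNA repair factor, had 120 and 0.109, and GEMIN5, which delivers small nuclear RNAs to the SMN complex, had 113 and 0.118.

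Across chromosomes the share at 100 or more ran from 2.15% on chromosome 4 (27 of 1258) to 4.60% on chromosome 10 (81 of 1761). Chromosome 1 had the most positions, 179 of 4252 (4.21%), and 13 of them were in SPEN.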

How the data were processed

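For the 8 libraries of YTHDF2 iCLIP2, 1 deposited list was used, a BED file with no header. The authors' score, deposited with each row, is a positive number with no stated scale. The submitters' processing notes name the build GRCh38.p12 and, among tools, STAR 2.7.3a, bedtools 2.27.1, UMI-tools 1.0.0 and FastQC 0.11.8, whose roles the notes do not give. No source used here names the site caller or says how libraries were combined. Of per-sample value columns the list has 0.

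Rows at the same chromosome, end and strand were joined (43178 rows, 37613 positions). Genes came from 19938 RefSeq protein-coding genes (GRCh38.p14), without readthrough genes; patches of GRCh38 leave the coordinates of the main chromosomes unchanged. Strands came from the promoter table for 15765 genes, otherwise from most positions lying in that gene alone, which matched the table in 6190 of 6197 genes where both were known. In all 36808 positions were assigned. A neighbour lay within 50 nt, and gene ends were 1 kb windows in genes of 10 kb or more. On simulated positions planted in 1000 genes, 986 fell in 1 gene of the strand and all 986 regained gene and distance. Intervals are exact binomial.

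Named genes hold the maximum or the 10 next highest scores, the most high-scoring positions, only such positions, many positions with none, or lead a gene list (up to 4 each). Positions at the threshold, the closest groups of 3, the extreme score ratios and those with readable sequence were also named. TOP1, CFL1 and other examples of gaps or of positions high in both parts were chosen after their values were seen. Members and lists were chosen with earlier results of these data known. Python 3.11.15 was used.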

Additional observations from a re-analysis of the deposited data

How the results depend on the processing

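No paired analysis was possible because the list has no column for a library. For the same reason no library could be left out. Of 60 alternative values, 35 stayed within the main value's 95% interval, or within 1.5 times for counts. The main values were 1218 positions, 783 genes, 16.3% in the last and 2.11% in the first 1 kb, 36.5% with a neighbour, 33.3% on 2 rows, 66.0% the highest of their gene, and a median of 7 positions per gene. By the rule, the highest position of every gene with a high-scoring position is itself high-scoring. The share that is the highest therefore only reflects how many such positions a gene holds, here and under each alternative. A threshold of 50 gave 3437 positions in 1895 genes, 55.9% of them the highest of their gene. A threshold of 200 gave 276 in 196 genes, with 1.18% in the first 1 kb, 37.0% on 2 rows and 74.0% the highest. Taking the lower score of positions on 2 rows left 845 positions in 572 genes, both within the 1.5 times allowed for counts. It gave 3.79% on 2 rows, by construction, 70.1% the highest and a median of 8 positions per gene. Merging positions within 50 nt left 0 with a neighbour, by construction, and 68.9% the highest. Windows of 2 kb held 26.9% and 4.81%, and with all gene spans 24.6% and 6.44%, at the 3′ and 5′ end. A neighbour lay within 20 nt for 15.9% and within 100 nt for 61.7%. Chosen after seeing the data, the shorter part alone gave 66 positions in 59 genes, with 13.9% in the last 1 kb (5 of 36), 7.58% with a neighbour, 86.3% the highest and a median of 3 positions per gene. With the longer part alone the share on 2 rows was not computed, and the other 7 values stayed within those bounds, the median at 6. The depth behind a score is unknown.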

Other observations

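Of the 1218 positions with a score of 100 or more, 37 were not placed in 1 gene. RBM12, an RNA-binding protein, and CPNE1 share the strand at 4 of them on chromosome 20, at 35653928, 35654183, 35654517 and 35655071, with scores of 307, 145, 142 and 294. The histone variant gene H2AX and DPAGT1, which starts N-glycan assembly, share 5 on chromosome 11 from 119093993 to 119094391, with scores of 146, 146, 251, 134 and 103. HOXA5 and HOXA3 share a position at 27141243 on chromosome 7 with a score of 389 and another at 27143588 with 113. ZBED6 and its host gene ZC3H11A share 2, at 131 and 108. The 4 positions outside protein-coding genes were that at ENO1, that at 21535060 on chromosome 17 (270), and 50798166 and 50798811 on chromosome 19 (127 and 138).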
